A study of Mus musculus with 2 samples.

Results

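The mir-135 family of the mouse has 3 microRNA genes, Mir135b, Mir135a-1 and Mir135a-2. They were taken by Ensembl identifier, through the GENCODE symbols, from the 1973 microRNA gene rows of a small RNA sequencing experiment on hindbrain of embryonic day 13.5 mice, and all 3 had a row and were detected. The embryos were of strain B6NCrl and healthy, with males and females pooled, and no other treatment or genotype is named in the labels. There are 2 libraries, which the labels number as biological replicates 2 and 1, with 1 donor identifier and a biosample identifier each. They form 1 group, so the data give levels within 1 tissue at 1 stage and the difference between these libraries. No source says that they came from separate litters, so p-values concern only the difference between these samples, which may be technical. These p-values set that difference against counting error or against a spread estimated from the same libraries.

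A microRNA gene is transcribed as a longer precursor that folds into a hairpin. The hairpin is cut into a short duplex, and either of its arms, named 5p and 3p, can be loaded onto Argonaute to repress messenger RNAs that pair with its seed, bases 2 to 8 from the 5′ end. The mir-135 family is conserved among vertebrates. Human miR-135a and miR-135b repress APC, a part of the complex that degrades β-catenin, and in mouse midbrain miR-135a limits Lmx1b, a transcription factor that maintains Wnt1 expression next to the midbrain-hindbrain boundary. Wnt1 from that boundary is needed for midbrain and anterior hindbrain growth.

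The mature arms, from RefSeq on GRCm38.p6, are shown because the arm that a read comes from decides whether it could be counted for 1 gene. The seed is in capitals.
miR-135a-5p: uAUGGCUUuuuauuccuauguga
miR-135a-1-3p: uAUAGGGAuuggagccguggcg
miR-135a-2-3p: uGUAGGGAuggaagccaugaa
miR-135b-3p: aUGUAGGGcuaaaagccauggg
The arm miR-135b-5p is named only.

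The miR-135a-5p arm, 23 bases long, had an exact copy in 2 hairpins, those of Mir135a-1 and Mir135a-2. It lay inside the longest run that these hairpins share, 24 bases, which added 1 base at the arm's 3′ end and none at its 5′ end. Each of the 3p arms had an exact copy in 1 hairpin, its own. In stretches of 20 bases, 5 of 71 in the Mir135a-1 hairpin and 5 of 81 in the Mir135a-2 hairpin were shared, each with the other and with no further hairpin of the RefSeq table. Of the 78 stretches of the Mir135b hairpin 0 were shared, and its longest run in common was 14 bases with Mir135a-1 and 13 bases with Mir135a-2. The seed of miR-135a-5p, AUGGCUU, occurred once (1 copy) in each of the 3 hairpins. The 3p arms had 3 different seeds, but the seeds of miR-135b-3p and miR-135a-2-3p overlapped in 6 bases when shifted against each other. The seeds of miR-135a-1-3p and miR-135a-2-3p shared 6 bases without a shift and differed in the first base of the seed.

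Reads that aligned to several places were set aside by the authors' counting and are in no gene row. They made up 34.5% of reads in replicate 2 and 33.9% in replicate 1. A full-length read of miR-135a-5p matches both Mir135a hairpins, so the Mir135a-1 and Mir135a-2 rows can hold fewer counts than the genes have reads, and their values are uncertain. Which arm the counted reads came from was not recorded in the tables. The Mir135b hairpin held no such exact shared stretch. Whether reads with mismatches were placed between it and the Mir135a hairpins was not tested.

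The genes lie on 3 chromosomes of GRCm38. Mir135b (ENSMUSG00000065435.1) is at chr1:132198088-132198184 on the plus strand, in an intron of the protein-coding gene Lemd1 and of the overlapping protein-coding model AC124108.1 on the same strand. Mir135a-1 (ENSMUSG00000065407.1) is at chr9:106154124-106154213 on the plus strand. It lies in an intron of the non-coding gene D030055H07Rik on that strand and overlaps an exon of the protein-coding gene Glyctk on the opposite strand. Mir135a-2 (ENSMUSG00000065524.1) is at chr10:92072086-92072185 on the minus strand, in an intron of Rmst, a long non-coding RNA of the developing midbrain and of neurons. The hairpins are 97, 90 and 100 bases long for Mir135b, Mir135a-1 and Mir135a-2.

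The gene rows held 4508244 counts in replicate 2 and 3006571 in replicate 1, and levels are given as counts per 1000000 of these (CPM). With at least 10 counts in both libraries, 356 of the 1973 rows were detected, or 18%. The labelled tissue was checked on marker microRNAs. The Hox cluster genes Mir10a and Mir10b, which are marks of hindbrain and spinal cord, together reached 132876 CPM in replicate 2, against 109408 CPM in replicate 1. Of the neural markers 4 of 8 with a row were detected. The 8 rows summed to 8057 CPM in replicate 2 and 7923 CPM in replicate 1. Most of this was Mir137, at 6281 CPM in replicate 2 and 6132 CPM in replicate 1. Mir9-2 and the 3 copies of Mir124a did not reach the minimum. Their mature sequences come from several loci, and their reads can be set aside as multimapping. Of the 4 muscle markers with a row, Mir206 was detected, at 64.1 CPM in replicate 2, against 32.6 CPM in replicate 1, and Mir1a-1, Mir133a-1 and Mir133a-2 had 0 counts. The mature miR-1a and miR-133a also come from several loci, so a 0 in these rows sets no limit on their level. The liver marker Mir122 averaged 39.9 ± 4.17 CPM (SD, n = 2).

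Set-aside reads of miR-135a-5p would raise the Mir135a genes by an amount that was not tested. By uniquely counted reads, Mir135b was the dominant gene of the family by a wide margin. It had 30119 counts or 6681 CPM in replicate 2, with an exact Poisson 95% interval of 6606 to 6757 CPM, and 21806 counts or 7253 CPM in replicate 1, with an interval of 7157 to 7350 CPM. Its mean was 6967 ± 404 CPM (SD, n = 2), which placed it at rank 24 of all gene rows and at the 93.3 percentile of the detected genes. It took 0.668% of all gene counts in replicate 2 and 0.725% in replicate 1. These intervals, and all others here, cover counting error only, since no molecular identifiers are named.

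Mir135a-1 had 1595 counts or 354 CPM in replicate 2 (interval 337 to 372 CPM) and 871 counts or 290 CPM in replicate 1 (interval 271 to 310 CPM). Its mean was 322 ± 45.3 CPM (SD, n = 2), rank 146 and the 59.0 percentile of the detected genes. By uniquely counted reads Mir135a-2 was the lowest member. It had 1131 counts or 251 CPM in replicate 2 (interval 236 to 266 CPM) and 581 counts or 193 CPM in replicate 1 (interval 178 to 210 CPM). Its mean was 222 ± 40.8 CPM (SD, n = 2), rank 163 and the 54.2 percentile. All members thus lay above the median level of the detected genes, 166 CPM. The order Mir135b, Mir135a-1, Mir135a-2 was the same in both libraries, and the ranges of the 3 genes over the libraries did not overlap. In the column taken as the opposite strand all 3 genes had 0 counts in both libraries, Mir135a-1 included, whose hairpin lies opposite a Glyctk exon.

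**Figure D1:**
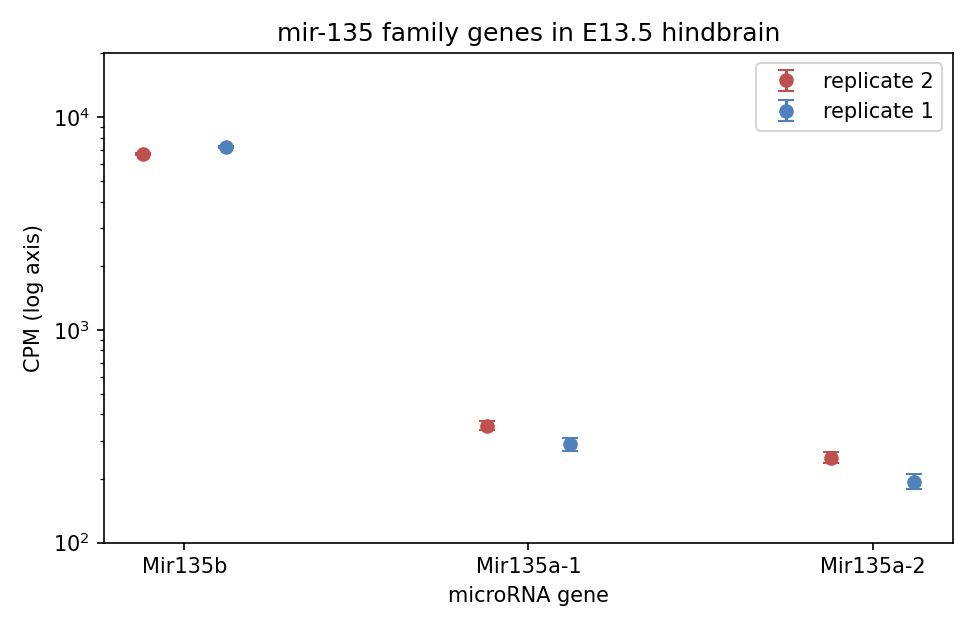
Level of each mir-135 family gene in CPM on a log axis, by library; points are libraries and bars exact Poisson 95% intervals, hidden by the points for Mir135b. Mir135b sits near 6967 CPM, and the points of Mir135a-1 lie above those of Mir135a-2 in both libraries.

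Together the 3 genes summed to 7286 CPM in replicate 2 (interval 7207 to 7365 CPM) and 7736 CPM in replicate 1 (interval 7637 to 7836 CPM). Mir135b made up 91.7% of the family's counts in replicate 2, with an exact binomial (Clopper-Pearson) 95% interval of 91.4% to 92.0%, and 93.8% in replicate 1, with an interval of 93.4% to 94.1%. Mir135a-1 made up 4.86% in replicate 2 and 3.74% in replicate 1. Mir135a-2 made up 3.44% in replicate 2 and 2.50% in replicate 1. These are shares of counted reads, and reads of the miR-135a-5p arm that were set aside would add to the Mir135a genes alone. The part of the set-aside reads that came from this arm was not tested.

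**Figure D2:**
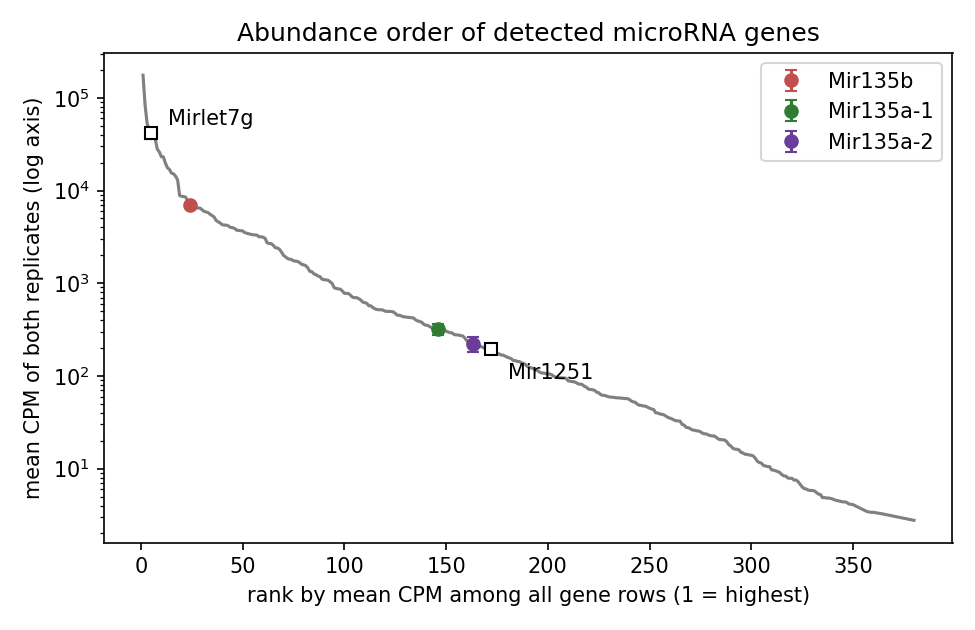
Mean CPM of the detected microRNA genes on a log axis (grey line) against their rank among all gene rows, with the mir-135 family as filled points and the locus neighbours Mirlet7g and Mir1251 as open squares; bars are the SD of 2 libraries. Mir135b at rank 24 stands among the abundant genes, and Mir135a-1 and Mir135a-2 at ranks 146 and 163 near the middle.

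Ratios between genes rest on uniquely counted reads. Set-aside reads of miR-135a-5p would raise the Mir135a genes by an amount that was not tested and that no interval here covers. Levels of different genes were compared as counts per hairpin length. This scaling is a choice, since the printed arms are 21 to 23 bases long whatever the hairpin length. On this scale Mir135b was 17.5-fold above Mir135a-1 in replicate 2 (95% interval 16.7 to 18.4) and 23.2-fold above it in replicate 1 (interval 21.7 to 24.9). It was 27.5-fold above Mir135a-2 in replicate 2 (interval 25.9 to 29.2) and 38.7-fold above it in replicate 1 (interval 35.6 to 42.1). By plain counts Mir135b was 18.9-fold above Mir135a-1 in replicate 2 and 25.0-fold in replicate 1. It was 26.6-fold above Mir135a-2 in replicate 2 and 37.5-fold in replicate 1. For both pairs the intervals of the libraries did not overlap. Mir135a-1 stood 1.57-fold above Mir135a-2 in replicate 2 (interval 1.45 to 1.69) and 1.67-fold above it in replicate 1 (interval 1.498 to 1.853), and here the intervals overlapped. The Mir135a genes thus kept their ratio within counting error, while the ratio of Mir135b to either of them differed between the libraries by more than that error.

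The genes closest to the members on the chromosome were read beside them, by uniquely counted reads and with the same limit on the Mir135a counts. Mirlet7g, a let-7 gene (a family that restrains proliferation in maturing cells), lies 24627 bases from Mir135a-1 on the same strand, in an intron of Wdr82. Per hairpin length it was 132-fold above Mir135a-1 both in replicate 2 (interval 125 to 139) and in replicate 1 (interval 123 to 141). Mir1251 shares the Rmst host with Mir135a-2 and lies 64955 bases from it at chr10:92137140-92137223, also in an intron. It had 817 counts or 181 CPM in replicate 2 and 616 counts or 205 CPM in replicate 1, a mean of 193 ± 16.7 CPM (SD, n = 2). The means of Mir135a-2 and Mir1251 differed by less than the SD of Mir135a-2. Per hairpin length Mir135a-2 was 1.16 times Mir1251 in replicate 2 (interval 1.06 to 1.27) and 0.792 times in replicate 1 (interval 0.706 to 0.889). The ratio of these host mates thus differed between the libraries by more than counting error. In replicate 1 their counts were close, at 581 and 616, and an order beyond counting error there depends on the scaling by length. In replicate 2 the counts, 1131 for Mir135a-2 and 817 for Mir1251, lie further apart than the scaled ratio. No other microRNA gene row lay within 50 kb of a member or in the same host on its strand. Mir135b had no such neighbour.

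**Figure D3:**
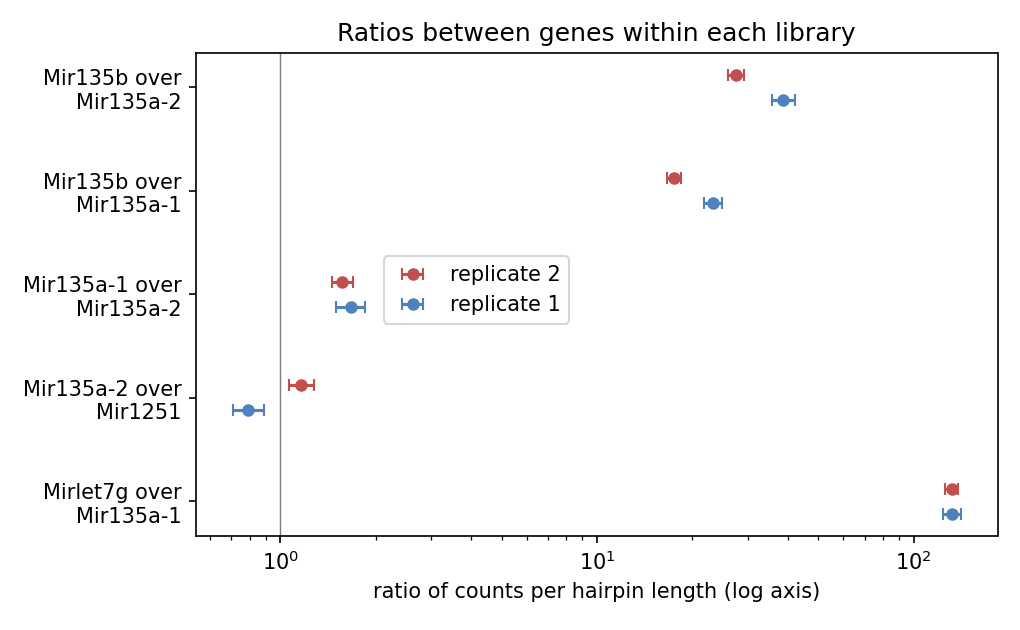
Ratios of uniquely counted reads per hairpin length between pairs of genes within each library, on a log axis. Bars are exact binomial 95% intervals, which do not cover set-aside reads of miR-135a-5p, and the grey line marks equal levels. The ratios of Mir135b to the Mir135a genes and of Mir135a-2 to Mir1251 have separate intervals in replicate 2 and replicate 1, while those of Mir135a-1 to Mir135a-2 and of Mirlet7g to Mir135a-1 overlap.

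Between the libraries, the log2 ratio of replicate 2 over replicate 1 with trimmed-mean (TMM) library sizes was 0.25 for Mir135a-1 (counting interval 0.13 to 0.37) and 0.34 for Mir135a-2 (interval 0.20 to 0.49). For Mir135b it was -0.15 (interval -0.18 to -0.13). By a two-sided exact binomial test of the counts adjusted by Benjamini-Hochberg across the 356 detected genes, the adjusted p was 9.6e-05 for Mir135a-1, 1.2e-05 for Mir135a-2 and 1.9e-31 for Mir135b. All 3 members passed it, 2 higher and 1 lower in replicate 2, where 45.2% of all detected genes passed, 20.2% higher and 25% lower. This test takes counting error as the only error and compares these libraries, not conditions.

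The members' differences were set beside the spread of all detected genes. The common biological coefficient of variation of the libraries was 0.140, and the median absolute log2 ratio was 0.18 over the detected genes and 0.25 over the members. The absolute ratio of Mir135b lay at the 45.5 percentile of detected genes, that of Mir135a-1 at the 67.7 and that of Mir135a-2 at the 79.8. With edgeR's exact test at that coefficient of variation, 0 of the 3 members had an adjusted p under 0.05, against 1.4% of all detected genes, and 0 had an unadjusted p under 0.05, against 5.34%. That coefficient comes from the same 2 libraries, with 1 library on each side, so this test ranks genes against a common spread and does not show that a gene did not differ. By the exact binomial test, some markers of other cell types also differed between the libraries. The liver marker Mir122, with a log2 ratio of 0.18, did not pass it. The choroid plexus and multiciliated markers Mir204 and Mir449a, 2 of 2 detected, were higher in replicate 2 at a summed 8239 CPM, against 4131 CPM in replicate 1. For the erythroid marker Mir451a, 57.5 CPM were measured in replicate 2 and 152 CPM in replicate 1, so it was lower in replicate 2. It was the only erythroid gene on the list. Outside the list, Mir144 and Mir486, also of red blood cells, did not pass the binomial test, with log2 ratios of 0.005 and -0.33. The skeletal muscle marker Mir206 was higher in replicate 2, with a log2 ratio of 0.94. The cardiac gene Mir208b, outside the list, was lower, with a log2 ratio of -2.54. Of these markers, Mir449a and Mir451a also passed edgeR's exact test, and Mir204 and Mir206 did not. The part of these cell types in the difference of the Mir135a genes was not tested. In a tissue of mixed cells, fewer cells of a type and less of a microRNA per cell cannot be told apart.

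**Figure D4:**
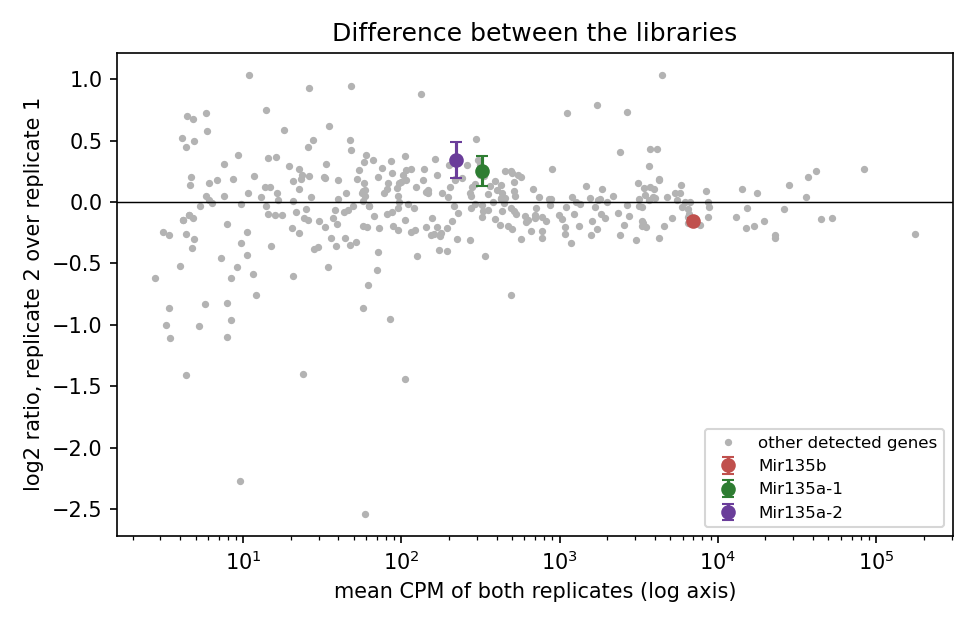
Log2 ratio of replicate 2 over replicate 1 with TMM library sizes against mean CPM on a log axis; grey points are the other detected genes, and bars on the members are 95% counting intervals. Mir135a-1 and Mir135a-2 lie above 0 and Mir135b below it, all within the cloud of genes of like level.

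By level, the genes nearest to Mir135b were Mir30d at 6631 ± 116 CPM, Mir130b at 6586 ± 207 CPM and Mir143 at 6490 ± 281 CPM (SD, n = 2). Nearest to Mir135a-1 were Mir665 at 322 ± 13.8 CPM, Mir339 at 321 ± 0.944 CPM and Mir210 at 315 ± 51.0 CPM. Nearest to Mir135a-2 were Mir496a at 224 ± 29.0 CPM, Mir383 at 220 ± 23.0 CPM and Mir667 at 218 ± 24.0 CPM. Likeness was the absolute difference in log2 mean CPM over 2 libraries. None of these 9 genes differed from its mir-135 neighbour by more than the sum of the SDs. They were chosen for likeness in the same values, so this is no separate result.

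Other microRNAs tied to the midbrain-hindbrain region or to Wnt signalling were read from a list of 9 genes, of which 8 had a row and 6 were detected. Mir135b was above every one of them among uniquely counted reads. Reads of the mature miR-9, like those of miR-135a-5p, match several loci, so the places of the Mir9 and Mir135a rows in this order are uncertain. Mir34c, whose family represses Wnt1 in differentiating mouse midbrain neurons, was highest at 1391 CPM in replicate 2 and 822 CPM in replicate 1. Mir9-3, a copy of the mir-9 that limits the boundary region in zebrafish, stood at 619 CPM in replicate 2 and at 527 CPM in replicate 1. Mir132, a regulator of neurite growth, stood at 595 CPM in replicate 2 and at 498 CPM in replicate 1. Mir203, which is best known from skin, stood at 506 CPM in replicate 2 and at 519 CPM in replicate 1. By these counts the 4 lay above both Mir135a genes in each library.

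Below the Mir135a genes stood Mir34a, at 65.2 CPM in replicate 2 and 50.9 CPM in replicate 1, and Mir34b, at 42.8 CPM in replicate 2 and 27.3 CPM in replicate 1. Mir133b, described in midbrain dopaminergic neurons and known above all from muscle, had 5 counts in replicate 2 and 1 count in replicate 1. Mir9-2 had 15 counts in replicate 2 and 9 in replicate 1, and Mir9-1 is not analysed here. Of the 6 detected genes 4 were higher and 0 lower in replicate 2 by the exact binomial test at an adjusted p under 0.05. Among all detected genes 20.2% were higher and 25% lower by this test. The median log2 ratio was 0.27 over the 6 genes and -0.01 over all detected genes. Mir34a and Mir203 were the genes that did not pass, with log2 ratios of 0.32 and -0.07. With edgeR's exact test 0 of the 6 had an adjusted p under 0.05 and 1 an unadjusted one, where 1.4% and 5.34% of all detected genes did. Mir34b and Mir34c, 2 of the 4, belong to one family with the multiciliated marker Mir449a, whose log2 ratio was 1.03; its part in this count was not tested.

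**Figure D5:**
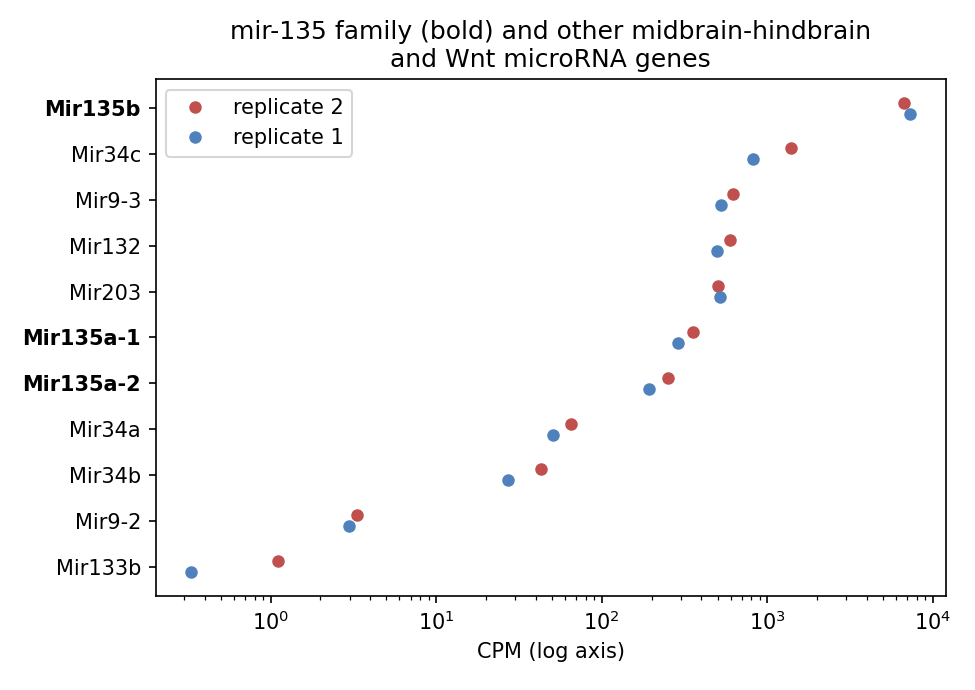
CPM on a log axis of the mir-135 family (bold names) and of the 8 other listed midbrain-hindbrain and Wnt microRNA genes with a row, in replicate 2 and replicate 1. By uniquely counted reads, which can leave out much of miR-9 and miR-135a, Mir135b lies above all listed genes, and Mir135a-1 and Mir135a-2 between Mir203 and Mir34a.

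The libraries hold no messenger RNA, so targets could be described by sequence alone. In the longest annotated 3′ UTR of each protein-coding gene (GENCODE M21), the transcript strand was searched for the 7 letters that pair with the seed of miR-135a-5p, AAGCCAT, and for the 8 letters AAGCCATA that add the base opposite position 1. The 8-letter matches are included in the 7-letter ones. Of 21020 genes 13.0% held the 7 letters and 2.98% the 8 letters. Among 25 Wnt pathway genes 9 held the 7 letters, or 36%, and 3 held the 8 letters, or 12%. The listed genes have longer 3′ UTRs, with a median of 1733 bases against 961 over all genes. Among 3′ UTRs within 10% of each listed gene's length, 21.3% on average held the 7 letters and 5.00% the 8 letters.

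The 3 genes with an 8-letter match were Dvl2, which relays the signal from the Wnt receptor, Gsk3b, the kinase that marks β-catenin for degradation, and Rspo2, a secreted enhancer of Wnt signalling. Their matches are shown, with the 8 letters in capitals. The first 7 letters pair with the seed printed above, and the last A lies opposite the base before the seed.
Dvl2: actgtgaagaAAGCCATAgggctccagg
Gsk3b: gagctttttaAAGCCATAtagttttaac
Rspo2: gatgcaagatAAGCCATAtatgaatgtt
Counted from the first base after the stop codon, the match begins at base 2454 of 2610 in Dvl2, at base 2891 of 5515 in Gsk3b and at base 1533 of 1733 in Rspo2. Dvl2 held a second 7-letter match, for 2 in all. The transcription factor gene Tcf7l2 held 2 matches of 7 letters, and the ligand gene Wnt5a and the receptor genes Fzd1, Fzd3 and Fzd8 held 1 each, as did the kinase gene Csnk1a1. Wnt1, Ctnnb1, which encodes β-catenin, and Apc held 0.

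Among 15 midbrain-hindbrain patterning genes 1 held the 7 letters, or 6.67%, and 0 held the 8 letters, where 14.6% of 3′ UTRs of like length held the 7 letters and 3.27% the 8 letters. The gene was Pax5, a transcription factor of the boundary region, with 2 matches in 6749 bases. Lmx1b held 0 matches in 3671 bases, a length at which 32.7% of 3′ UTRs held 1 or more. The engrailed genes En1 and En2, the organiser signal Fgf8 and the boundary factors Otx2 and Gbx2 also held 0. A match describes letters and not a working site, and its absence says that these letters are not in this 3′ UTR. Shorter seed matches, other kinds of site and other 3′ UTRs of a gene were not searched. The 0 of Lmx1b and of Apc thus does not bear on their repression reported elsewhere.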

How the data were processed

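Short RNA of hindbrain from 13.5-day embryos was sequenced in 2 libraries. The authors deposited raw counts of reads for each microRNA gene row, from alignment to mm10 and the GENCODE M4 annotation, per the file headers (README texts). The name of the aligner or counter is not given in the sources used here. Strand columns carry no names, so the annotated strand was inferred to be the one with more counts. It held 98.1% of either-strand gene counts in each library, and in every gene row both strands added up to the either-strand value. Summary rows stayed out of library sizes. In replicate 2 gene rows held 47.5% of 9486700 reads, in replicate 1 49.0% of 6141045.

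Names and coordinates came from GENCODE M21 on GRCm38, which matched 1894 of 1973 rows, and mature and hairpin sequences from RefSeq on GRCm38.p6 (3 of 3 members). CPM used gene-row totals. A count of 0 allows up to 3 counts. TMM factors (edgeR 4.0.16, R 4.3.3) came from all gene rows. With 1 group, edgeR's quasi-likelihood test could not be run. A two-sided exact binomial test (scipy 1.17.1) with Benjamini-Hochberg adjustment over detected genes was therefore used at 0.05. It was tried on counts simulated with counting error alone, which cannot show how it behaves where libraries differ by more. Alternatives were DESeq2 1.42.0 size factors, totals, filters, strand columns, each library alone and edgeR's exact test. Named genes were the members, microRNA genes within 50 kb or in the same host, the 3 nearest in level to each member, and the listed genes. Members and lists were chosen with earlier results of these data known.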

Additional observations from a re-analysis of the deposited data

How the results depend on the processing

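Levels, shares and differences between the libraries kept their direction under every alternative run. With CPM taken over all reads, unmapped and multimapping ones included, Mir135b stood at 3363 CPM, Mir135a-1 at 155 CPM, Mir135a-2 at 107 CPM and the family sum at 3625 CPM, a lower value that follows from the larger denominator. With edgeR's exact test at the common coefficient of variation, the log2 ratios of 0.25 for Mir135a-1, 0.34 for Mir135a-2 and -0.15 for Mir135b no longer passed (adjusted p = 1 for each), and the number of genes past the test was 5 against 161, since that test adds a spread between libraries, estimated from the same libraries. With at least 1 count in both libraries as the minimum, 587 genes were detected against 356. Of the other 45 values from alternatives, levels and shares moved by less than the SD between libraries. Ratios stayed on the same side of the threshold, and counts of genes stayed within 1.5 times the count given. For each library alone this was fixed in advance, because each library of a pair lies within the SD of the pair's mean. Shares from either-strand counts could not move either, since the members had 0 opposite-strand counts. Those values say nothing on how stable the results are.

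Each library alone gave 6681 to 7253 CPM for Mir135b, 290 to 354 CPM for Mir135a-1, 193 to 251 CPM for Mir135a-2 and 7286 to 7736 CPM for the family sum. The share of Mir135a-2 in the family ran from 2.50% to 3.44% and that of Mir135b from 91.7% to 93.8%. Under library totals the calls among all genes were 92 higher and 77 lower in replicate 2, against 72 and 89 with TMM. No paired analysis was possible because the samples form 1 group. With 2 libraries the SD of each level rests on 1 difference, and depth limits the Mir135a genes, at 581 to 1595 counts, more than Mir135b.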
